A study of Homo sapiens with 16 samples.

Results

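Histone genes were followed across 4 established human acute myeloid leukaemia cell lines that had received azacitidine (AZA), a cytidine analogue that traps DNA methyltransferases. The members are all genes whose symbol in the array's annotation begins with H1-, H2AC, H2BC, H2AX, H2AZ, H2AJ, H2AW, H2BU, H2BW, H3-, H3C, H4- or H4C. Each was read from 1 probe set, the one with the highest mean among those that name a single gene, and no filter on signal was applied. This gave 58 genes of the 19775 with such a probe set. By their known biology 41 were classed as replication-dependent, 6 as variant (H1-10, H2AJ, H2AX, H2AZ1, H2AZ2 and H3-3A), 6 as germline and 4 as pseudogenes, and the last, H1-10-AS1, is a non-coding neighbour of H1-10. Of the 58 genes, 42 lie on chromosome 6 and 4 on chromosome 1. H3-3B and H4C3 have no single-gene probe set in the annotation used and were not analysed here as members.

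The lines were AML-193, HNT-34, KG1a and HL60. Each was given either vehicle (DMSO) or 0.5 µM AZA on each of 3 days and was then kept for 4 days without drug. All 8 groups grew in RPMI made for SILAC with the light amino acids, and RNA was taken from frozen pellets of the bulk culture for Affymetrix U133 Plus 2.0 arrays, 2 per group and 16 in all. Nothing in the labels ties the paired arrays to separate cultures; p-values here reflect the spread among these samples alone, and that spread may be technical. The submitters' stated aim was to follow how AZA acts on the regulation of DNA methylation. Here the question is which histone transcripts differed after AZA, in which lines, and whether replication-dependent and variant genes did so alike.

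Histones H2A, H2B, H3 and H4 form the core around which DNA is wound, and linker histone H1 closes the DNA over it. Replication-dependent genes sit in clusters, are transcribed in S phase, and yield messages that usually end in a stem-loop bound by SLBP in place of a poly(A) tail. Variant genes lie alone, carry introns in most cases, give polyadenylated messages and are made throughout the cell cycle, and they replace or add to the core histones at particular sites. In cells that stop dividing, some replication-dependent genes are also known to give polyadenylated messages. How far the labelling on these arrays captured messages without a tail is not given in the sources used here.

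Many H2A and H2B genes lie head to head and share the stretch between them, so the bases upstream of genes described later are shown here. Each line gives the 150 bases before the RefSeq start (build GRCh38.p14), read 5′ to 3′ on the gene's own strand, with the octamer ATTTGCAT or its reverse complement in capitals. H2AC6 and H2BC4 are a head-to-head pair, and H2BC5, H2BC12 and H2BC21 are H2B genes that rose in HNT-34. H2BC14 is an H2B gene that was not called in any line and whose signal lay below the array median on every array.
H2AC6, chr6:26124022-26124171, plus strand: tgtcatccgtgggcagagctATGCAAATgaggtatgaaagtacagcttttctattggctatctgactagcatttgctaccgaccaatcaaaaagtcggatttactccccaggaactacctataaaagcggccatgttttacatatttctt
H2BC4, chr6:26123927-26124076, minus strand: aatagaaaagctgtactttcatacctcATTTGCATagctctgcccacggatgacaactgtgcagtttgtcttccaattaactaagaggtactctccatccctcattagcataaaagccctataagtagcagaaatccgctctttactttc
H2BC5, chr6:26157971-26158120, plus strand: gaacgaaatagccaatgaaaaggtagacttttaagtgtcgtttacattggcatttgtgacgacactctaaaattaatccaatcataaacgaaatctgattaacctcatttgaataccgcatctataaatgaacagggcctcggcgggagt
H2BC12, chr6:27146859-27147008, minus strand: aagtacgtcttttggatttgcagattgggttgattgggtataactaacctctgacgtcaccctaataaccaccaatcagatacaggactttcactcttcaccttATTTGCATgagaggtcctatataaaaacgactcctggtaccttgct
H2BC21, chr1:149886683-149886832, minus strand: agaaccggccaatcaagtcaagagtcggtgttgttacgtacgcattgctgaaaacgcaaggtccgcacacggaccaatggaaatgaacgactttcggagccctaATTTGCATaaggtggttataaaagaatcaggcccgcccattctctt
H2BC14, chr6:27814872-27815021, plus strand: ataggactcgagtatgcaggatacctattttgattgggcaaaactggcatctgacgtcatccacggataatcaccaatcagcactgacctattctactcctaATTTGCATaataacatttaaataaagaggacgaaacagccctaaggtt
The starts of H2BC4 and H2AC6 are 246 bases apart, and the capitals in both sequences are the same 8 bases read from opposite strands. Promoter windows from 250 bases before to 50 bases after the start were found for 50 of the 58 members. On either strand the octamer was in 6 of 8 H2A and 9 of 12 H2B replication-dependent genes, against 1.77% of 35116 RefSeq windows. It was in 0 of 5 H1, 0 of 6 H3, 0 of 7 H4 and 0 of 6 variant genes. CCAAT was in 33 of 38 replication-dependent genes (34.6% of all windows) and TATAAA in 26 of 38 (11.5% of all windows). Matches of different motifs can share end letters and were counted separately. Median CG counts were 11 per window for replication-dependent and 30 for variant genes, and 14 for all windows. A match describes the letters only.

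The deposited values are log2 signals, with a median of 6.73 on every array. Replicate arrays correlated at 0.9966 to 0.9986 over the 19775 genes, each read from 1 probe set. The array's control probe sets for ACTB and GAPDH give a 3′ minus 5′ signal, which is larger in degraded RNA. It stood apart in AML-193 vehicle arrays (1.59 and 0.939, against 0.229 and 0.168 with AZA) and in HL60 AZA arrays (0.837 and 0.607, against 0.0361 and 0.0526 with vehicle). In HNT-34 and KG1a it lay between -0.111 and 0.122 on all arrays. Of 7 blood and myeloid marker genes, 5 to 7 were above the array median in every group, and of 3 epithelial genes 0 were. The summed log2 signal of 3 T cell genes was higher with AZA in every line, most in KG1a (23.11 and 23.48 with vehicle as lowest and highest, 26.68 and 27.01 with AZA), and 2 B cell and 3 fibroblast genes had 1 and 2 members above the median in every group. The part of these in the results was not tested, except that the 3′ minus 5′ signal was entered as a covariate.

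Differences are AZA minus vehicle in log2 units from 1 limma fit over all genes and arrays, ± the standard error (SE) of that fit, with n = 2 arrays per group, and a gene is called at an adjusted p under 0.05 (Benjamini-Hochberg over 19775 genes). HNT-34 showed the largest count of rises among the 58 members: 15 were called higher, or 25.9%, and 1 lower, or 1.72%, against 10.6% and 9.57% of all genes. In AML-193, 10 were higher (17.2%) and 8 lower (13.8%), close to the 14.9% and 14% of all genes. In HL60, 9 were higher (15.5%) and 4 lower (6.9%), against 17.3% and 11.2% of all genes. KG1a had 2 higher and 1 lower, against 4.16% and 1.88% of all genes. For the mean of the 4 lines 13 were higher (22.4%) and 6 lower (10.3%), against 16.6% and 11.3% of all genes. In AML-193, HL60 and KG1a these shares are near the background. With the 3′ minus 5′ covariate the counts were 2 in AML-193 and 2 in HL60, and 17 in HNT-34. Of all genes, 1.01% were then higher and 0.622% lower in AML-193, 5.5% and 3.28% in HL60, and 11.3% and 10.1% in HNT-34. In AML-193 and HL60 this signal ran largely with the arm, so the fit can hardly separate it from AZA there. Calls were lost whether or not the estimate moved. In AML-193 H2AC17 went from -0.93 to -0.89 and H2BC21 from 0.61 to 0.14, and neither stayed called. A call lost with the covariate is therefore not read as an absent difference, and the part of RNA quality was not tested. Without the second HL60 vehicle array HL60 had 8 called. Probe sets of the classes _x_at and _s_at can match several near-identical transcripts, and without them 45 members remained. Of these, 7 were higher and 1 lower in HNT-34, 5 and 4 in AML-193, and 2 and 2 in HL60. The 1 lower in HNT-34 was then H2AJ (-0.285, adjusted p = 0.033 in limma). H1-10, the 1 lower in the main fit, has only an _s_at probe set and was not among the 45. Shares of all genes were not computed for the fits without that array or those probe-set classes. Fewer cells that make a transcript and less of it per cell cannot be told apart in bulk RNA.

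**Figure D1:**
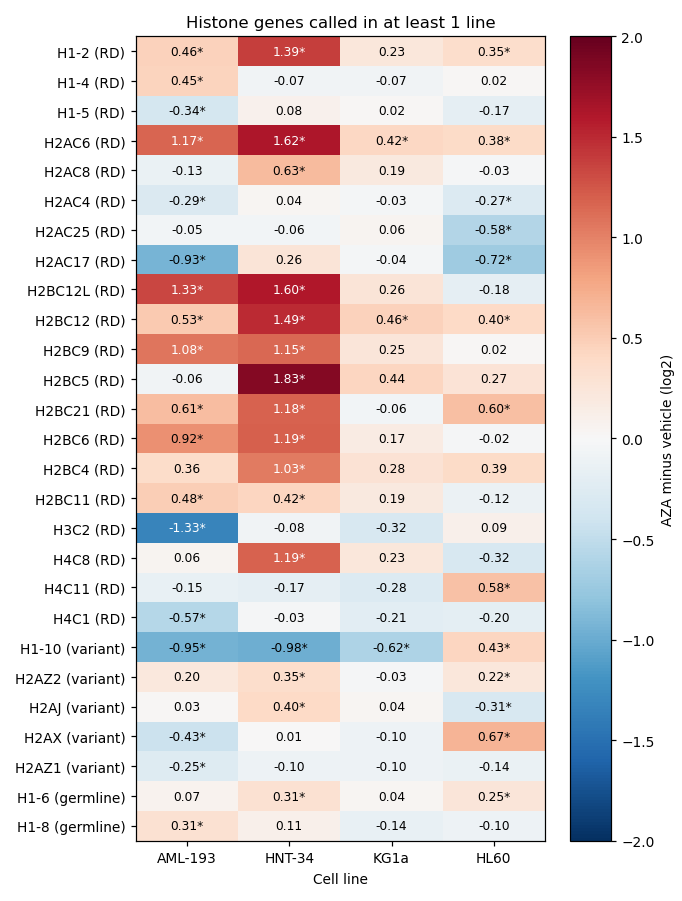
AZA minus vehicle (log2, colour and number) for the 27 members called in at least 1 line, by cell line; an asterisk marks an adjusted p under 0.05 and RD stands for replication-dependent. HNT-34 holds the deepest red cells, among H1-2, H2AC6 and the H2B genes, and H1-10 is blue in 3 lines and red in HL60.

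The 41 replication-dependent genes had a median difference of 0.14 in HNT-34, 0.04 in AML-193, 0.03 in KG1a and -0.03 in HL60, against medians of 0.01 to 0.03 over all genes in the 4 lines. The 6 variant genes had medians of -0.15 in AML-193, 0.00 in HNT-34, -0.10 in KG1a and 0.16 in HL60. The histone types were unequal within the first class. The 13 H2B genes had a median of 1.03 in HNT-34, with 8 called higher and 0 lower, and 6, 1 and 2 were higher in AML-193, KG1a and HL60. Of the 8 H2A genes 2 were called higher in HNT-34, of 5 H1 genes 1, of 8 H4 genes 1, and of 7 H3 genes 0 (2 at an unadjusted p under 0.05, H3C6 and H3C8, in limma). The rises called in HNT-34 were mostly of brighter genes, and this was also so over all genes. In all, 17 replication-dependent genes had a mean signal at or above the array median, with a median difference of 1.03 in HNT-34. The 24 dimmer ones had 0.02. Called higher there were 9 of the 17 and 3 of the 24. Over all genes, 1820 of 12841 brighter and 280 of 6934 dimmer ones were called higher in HNT-34, with median differences of 0.005 and 0.017. The mean signal is taken over vehicle and AZA arrays together, so a rise with AZA itself makes a gene brighter. Among the 17, 9 of 13 H1, H2A and H2B genes were called higher in HNT-34 and 0 of 4 H3 and H4 genes (2 at an unadjusted p under 0.05). Whether these shares differ between histone types was not tested.

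**Figure D2:**
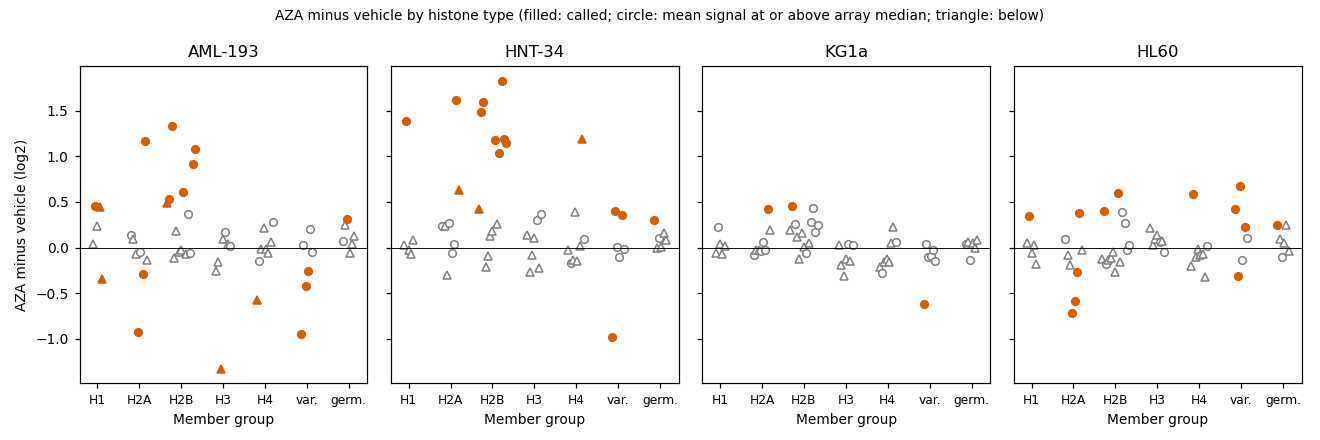
AZA minus vehicle (log2, vertical axis) of each member by histone type, 1 panel per line; H1 to H4 are replication-dependent genes, var. and germ. are variant and germline genes, filled orange points are called, circles have a mean signal at or above the array median and triangles below it. In HNT-34 the called H2B circles lie between 1.03 and 1.83, and in KG1a 2 replication-dependent genes are filled.

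Linker histone H1-2 rose in AML-193, HNT-34 and HL60. Its log2 signals in HNT-34 were 9.24 and 9.24 on the vehicle arrays and 10.66 and 10.60 on the AZA arrays, a difference of 1.39 ± 0.08 (2.62-fold, adjusted p = 2.11e-08 in limma). Both AZA arrays lay far above both vehicle arrays. The difference was 0.46 ± 0.08 in AML-193 (adjusted p = 0.000845) and 0.35 ± 0.08 in HL60 (adjusted p = 0.00539), and 0.23 ± 0.08 in KG1a did not pass the test (adjusted p = 0.14), although its arrays did not overlap either (8.72 and 8.75 against 8.97 and 8.94). The HNT-34 difference exceeded that of KG1a by 1.16 ± 0.12 (adjusted p = 1.44e-05) and that of HL60 by 1.04 ± 0.12 (adjusted p = 2.17e-05). With the covariate the AML-193 and HL60 differences of H1-2 were 0.38 and 0.40 and no longer called (adjusted p = 0.351 and 0.0832). The HL60 call of H1-2 was also lost without the first HL60 vehicle array (0.255). Of the other linker genes, H1-4 rose by 0.45 ± 0.11 in AML-193, and H1-1 and H1-3 were not called in any line. The mean signals of H1-1, H1-3 and H1-4 (6.07 to 6.35) were below the array median. H1-5 was at -0.34 ± 0.11 in AML-193 (adjusted p = 0.0309), a call lost when any of 3 of that line's arrays was left out (-0.21 and adjusted p = 0.277 without the second AZA array) and with the covariate (-0.42, adjusted p = 0.473).

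H2AC6, a core H2A gene, was called higher in all 4 lines. Its signals were 8.53 and 8.43 with vehicle and 9.69 and 9.61 with AZA in AML-193, and 9.40 and 9.39 with vehicle and 11.005 and 11.029 with AZA in HNT-34. KG1a arrays read 9.26 and 9.43 against 9.82 and 9.70, and HL60 arrays 9.08 and 8.95 against 9.47 and 9.31. The arrays of the treatments did not overlap in any line. The differences were 1.17, 1.62, 0.42 and 0.38 in that order, each ± 0.09, with adjusted p from 1.21e-08 in HNT-34 to 0.0109 in KG1a. HNT-34 exceeded KG1a by 1.20 ± 0.13 and HL60 by 1.24 ± 0.13 (adjusted p = 2.36e-05 and 1.03e-05). H2AC6 was the replication-dependent gene still called in AML-193 with the covariate, at 1.30 (adjusted p = 0.0052), whereas its HL60 value was then 0.30 (adjusted p = 0.242). Its probe set ends in _s_at, a class designed to match several transcripts.

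The other H2A genes went different ways. H2AC8 was called higher in HNT-34 alone, at 0.63 ± 0.14. H2AC17 fell by 0.93 ± 0.13 in AML-193, from 8.56 and 8.33 to 7.50 and 7.53, and by 0.72 ± 0.13 in HL60, from 8.03 and 7.76 to 6.94 and 7.42. Neither pair of arms overlapped. H2AC25, which lies on chromosome 1, fell by 0.58 ± 0.14 in HL60 (adjusted p = 0.00466), and H2AC4 fell in AML-193 and HL60, by 0.29 and 0.27, each ± 0.09. With the covariate these falls kept their direction, at -0.89 in AML-193 and -0.74 in HL60 for H2AC17, -0.48 in HL60 for H2AC25, and -0.35 in AML-193 and -0.23 in HL60 for H2AC4, but none was called (adjusted p from 0.0648 to 0.472). The H2AC4 calls were also lost in fits that left out 1 array of the line, at -0.19 to -0.31 in AML-193 and -0.23 to -0.31 in HL60. H2AC14, H2AC15 and H2AC16 were not called in any line. H2AC15 and H2AC16 had mean signals of 5.25 and 4.83, below the array median.

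H2BC12, a core H2B gene, was also called higher in all 4 lines, and its probe set is not of a shared class. Signals rose from 12.64 and 12.61 to 13.20 and 13.10 in AML-193 and from 11.41 and 11.34 to 12.87 and 12.85 in HNT-34. They rose from 11.05 and 11.29 to 11.65 and 11.60 in KG1a and from 12.69 and 12.60 to 13.05 and 13.04 in HL60. No AZA array overlapped a vehicle array of its line, and the HNT-34 AZA arrays reached the level of the vehicle arrays of AML-193 and HL60. The differences were 0.53, 1.49, 0.46 and 0.40, each ± 0.09 (adjusted p = 0.000427, 1.68e-08, 0.0044 and 0.00274). The HNT-34 difference was larger than that of each other line (adjusted p = 7.28e-05 against AML-193, 5.97e-05 against KG1a and 2.21e-05 against HL60), and the other 3 did not differ from one another (adjusted p from 0.466 to 0.818). With the covariate H2BC12 was 0.48 in AML-193 and 0.43 in HL60, not called (adjusted p = 0.257 and 0.0776).

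The KG1a rises of H2AC6 and H2BC12 were lost when either of 2 arrays was left out. Without the first KG1a vehicle array H2AC6 was 0.33 and H2BC12 0.34 in that line (adjusted p = 0.116 and 0.0601), and without the first KG1a AZA array they were 0.36 and 0.43 (adjusted p = 0.131 and 0.0571). In both cases 1 member remained called in KG1a, which fell. The HL60 rise of H2AC6 was likewise lost without the second HL60 vehicle array (0.31, adjusted p = 0.0675) and without the first HL60 AZA array (0.30, adjusted p = 0.0597).

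H2BC21 lies in the smaller cluster on chromosome 1. It rose by 0.61 ± 0.11 in AML-193, by 1.18 ± 0.11 in HNT-34 and by 0.60 ± 0.11 in HL60, and was -0.06 ± 0.11 in KG1a, where the arms overlapped (7.79 and 7.99 with vehicle, 7.92 and 7.75 with AZA). HNT-34 exceeded KG1a by 1.24 ± 0.15 (adjusted p = 8.02e-05). With the covariate the HL60 rise was 0.90 and still called (adjusted p = 0.00159), and the AML-193 value was 0.14 (adjusted p = 0.797).

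H2BC5 had the largest difference of any member. In HNT-34 its signals were 9.54 and 9.48 with vehicle and 11.33 and 11.35 with AZA, a difference of 1.83 ± 0.15 (3.55-fold, adjusted p = 5.87e-07). In AML-193 the arms overlapped (9.02 and 8.46 with vehicle, 8.86 and 8.49 with AZA) and the difference was -0.06 ± 0.15. KG1a was at 0.44 ± 0.15 (adjusted p = 0.112) and HL60 at 0.27 ± 0.15 (adjusted p = 0.213), neither of them called. The AML-193 difference minus the HNT-34 difference was -1.89 ± 0.21 (adjusted p = 2.34e-05). With the covariate the AML-193 value was 0.67 and not called (adjusted p = 0.25). A second probe set for H2BC5 gave 0.98 ± 0.11 in HNT-34 and 0.27 ± 0.11 in AML-193, so the sign of the AML-193 value depends on the probe set and the covariate. Both probe sets are of the _x_at class, whose probes can bind near-identical genes.

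Another 4 H2B genes rose by more than a doubling in HNT-34. H2BC12L was 1.60 ± 0.13 there and 1.33 ± 0.13 in AML-193, H2BC6 was 1.19 ± 0.10 and 0.92 ± 0.10, and H2BC9 was 1.15 ± 0.13 and 1.08 ± 0.13, all called. These 3 were not called in KG1a (0.17 to 0.26) or in HL60 (-0.18 to 0.02). They too are read from _x_at probe sets, so the separate genes are uncertain, and with the covariate their AML-193 values were 0.62, 0.64 and 0.37 and not called (adjusted p from 0.137 to 0.413). H2BC4, the partner of H2AC6, was called in HNT-34, at 1.03 ± 0.17 (from 6.53 and 6.47 to 7.55 and 7.52, adjusted p = 0.000645). It was 0.36, 0.28 and 0.39 in AML-193, KG1a and HL60, each ± 0.17 (adjusted p from 0.12 to 0.456), and its KG1a and HL60 arms overlapped. H2BC11 was called at 0.48 ± 0.13 in AML-193 and 0.42 ± 0.13 in HNT-34. The AML-193 call was lost without the second vehicle array (0.29, adjusted p = 0.12), without the second AZA array (0.37, adjusted p = 0.104) and with the covariate (0.94, adjusted p = 0.104). The HNT-34 call was lost without any of 3 arrays of that line (0.35 to 0.48, adjusted p from 0.0669 to 0.188). H2BC3, H2BC13, H2BC14, H2BC15 and H2BC17 were not called in any line, and their mean signals (4.98 to 6.42) were below the array median.

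**Figure D3:**
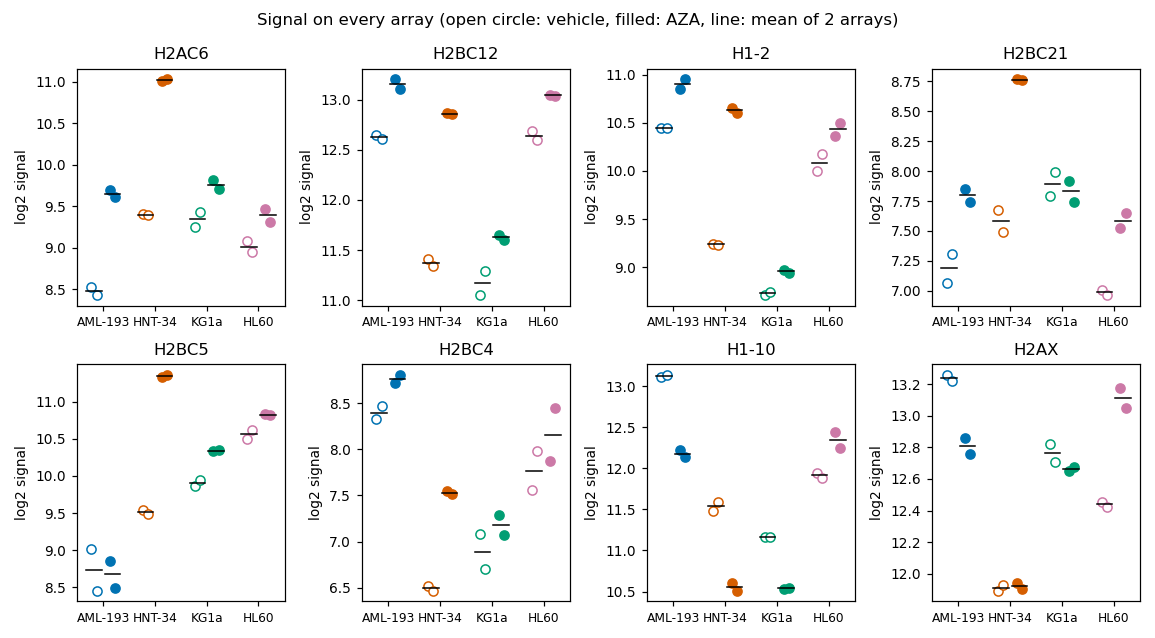
Log2 signal (vertical axis, separate scale per panel) on each of the 16 arrays for 8 members; open circles are vehicle, filled circles AZA and black lines the mean of 2 arrays, by cell line. H2AC6 and H2BC12 are higher with AZA in all 4 lines, H2BC5 reaches 11.34 with AZA in HNT-34, and H1-10 and H2AX run opposite ways in AML-193 and HL60.

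The octamer shown with the sequences was in 8 of 9 H2A and H2B genes called higher in HNT-34 and in 7 of 11 that were not called. No test of this difference was made. H2BC14 holds it and was at -0.10 ± 0.16 in HNT-34, and the stretch shown for H2BC5 does not hold it. The members of head-to-head pairs had values of 1.62 and 1.03 (H2AC6 and H2BC4), 0.24 and -0.10 (H2AC14 and H2BC14), 0.24 and 0.12 (H2AC15 and H2BC15) and 0.26 and 0.18 (H2AC17 and H2BC17) in HNT-34. H2AC15, H2BC14, H2BC15 and H2BC17 had mean signals of 5.25, 5.14, 6.19 and 4.98, below the array median on every array. Whether these genes were unchanged or too dim to read was not tested. Genes of a pair share the stretch between them and are not separate evidence.

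Core H3 and H4 genes read from a probe set that names a single gene had few calls. The probe sets of H3C2 and H4C8 end in _s_at and that of H4C11 in _x_at, classes that can match several transcripts. H3C2, H4C1, H4C4, H4C5, H4C7, H4C8 and H4C13 had mean signals of 5.51 to 6.65, below the array median. H3C2 fell in AML-193 by 1.33 ± 0.14 (adjusted p = 1.9e-05), from 7.18 and 6.96 to 5.72 and 5.76, which left it near the vehicle arrays of the other lines (5.30 to 5.91). With the covariate it was -1.36 and not called (adjusted p = 0.0796). None of the other 6 H3 genes was called in any line by the fit over genes, and H3C1, H3C3, H3C7 and H3C11 had mean signals below the array median. H4C8 rose in HNT-34 by 1.19 ± 0.14 (from 6.44 and 6.29 to 7.54 and 7.56, adjusted p = 2.11e-05), and its second probe set gave 1.25 ± 0.11. H4C11 rose in HL60 by 0.58 ± 0.10, which with the covariate was 0.37 and not called (adjusted p = 0.138), and H4C1 fell in AML-193 by 0.57 ± 0.14, which with the covariate was -0.95 and not called (adjusted p = 0.178).

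Many histone genes are so alike that 28 further probe sets name several of them, and these were read in a fit over all 54613 probe sets. In HNT-34, 11 of the 28 were called higher and 2 lower, against 6.22% and 6.29% of all probe sets. A probe set for 10 H3 genes rose there by 1.62 ± 0.12, from 7.29 and 7.32 to 8.89 and 8.97 (adjusted p = 8.78e-07), and a second probe set of H3C6 rose by 0.93 ± 0.11, so the absence of H3 calls holds only for the probe sets used above. A probe set for 5 H2B genes (H2BC4, H2BC6, H2BC7, H2BC8 and H2BC10) rose by 2.10 ± 0.14, from 4.48 and 4.48 to 6.53 and 6.62. All of these signals lay below the array median. The brightest probe set for 14 H4 genes went the other way in HNT-34, from 13.71 and 13.83 to 13.24 and 13.44, a difference of -0.43 ± 0.10 (adjusted p = 0.0135).

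In AML-193, 10 of these 28 were higher and 2 lower (11.7% and 13.4% of all probe sets), and in HL60 6 were higher and 5 lower (11.4% and 11.1%). H2AC18 and H2AC19, H2A genes that share their probe sets, rose in AML-193 by 0.60 ± 0.08, in HNT-34 by 1.24 ± 0.08 and in HL60 by 1.10 ± 0.08, and the KG1a value was 0.10 ± 0.08 (adjusted p = 0.695). The HL60 arrays went from 10.69 and 10.62 to 11.77 and 11.75, with no overlap. The 8 probe sets shared by H3-3A and H3-3B, which encode the replacement histone H3.3, ranged from -0.43 to 0.63 in AML-193 and from -0.85 to 0.19 in HL60, so no single direction can be given for H3.3 in those lines. These are the lines in which the 3′ minus 5′ signal differed between arms, and the covariate was not run on the fit over probe sets.

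H1-10, a linker histone made outside S phase, was the member with the clearest opposition between lines. Its signals fell from 13.12 and 13.14 to 12.23 and 12.14 in AML-193, from 11.48 and 11.60 to 10.61 and 10.51 in HNT-34, and from 11.16 and 11.16 to 10.53 and 10.54 in KG1a. In HL60 they rose from 11.95 and 11.89 to 12.44 and 12.25. No arms overlapped in any line, and the differences were -0.95, -0.98, -0.62 and 0.43, each ± 0.08 (adjusted p = 2.77e-06, 9.71e-07, 0.000276 and 0.00144). The HNT-34 difference minus the HL60 difference was -1.41 ± 0.12 (adjusted p = 1.63e-06), and that of KG1a minus HL60 was -1.05 ± 0.12 (adjusted p = 4.36e-05). With the covariate AML-193 stayed called at -0.84 (adjusted p = 0.0447) and HL60 did not, at 0.36 (adjusted p = 0.119). The neighbouring transcript H1-10-AS1 was not called in any line (-0.20 to 0.09). The only probe set of H1-10 ends in _s_at, so the gene did not enter the fit without shared classes.

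H2AX, the H2A variant that is phosphorylated at DNA breaks, fell by 0.43 ± 0.08 in AML-193 (from 13.26 and 13.22 to 12.86 and 12.76) and rose by 0.67 ± 0.08 in HL60 (from 12.46 and 12.42 to 13.18 and 13.05). It was 0.01 in HNT-34 and -0.10 in KG1a, each ± 0.08. The AML-193 difference minus the HL60 difference was -1.10 ± 0.11 (adjusted p = 7e-06). With the covariate HL60 was 0.56 and called (adjusted p = 0.0106), and AML-193 was -0.26 and not called (adjusted p = 0.487). The 4 H2AX probe sets ranged from -0.43 to 0.20 in AML-193 and from -0.14 to 0.67 in HL60.

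H2AZ1 and H2AZ2 encode H2A.Z, the variant found at promoters. H2AZ1 fell by 0.25 ± 0.07 in AML-193 (adjusted p = 0.0186), while its other probe set was at 0.09 there. H2AZ2 rose by 0.35 ± 0.08 in HNT-34 and by 0.22 ± 0.08 in HL60 (adjusted p = 0.00453 and 0.0491), but its 4 probe sets spanned -0.29 to 0.32 in HL60, and in AML-193 from -0.13 to 0.72. H2AJ was 0.40 ± 0.10 in HNT-34 and -0.31 ± 0.10 in HL60, both called. Its 4 probe sets spanned -0.61 to 0.40 in HNT-34, so its direction depends on the probe set. With the covariate H2AZ1 was -0.37 in AML-193, and H2AZ2 and H2AJ were 0.36 and -0.28 in HL60. None of these was called by limma (adjusted p = 0.291, 0.0705 and 0.313), while H2AZ2 and H2AJ stayed called in HNT-34. The calls of H2AZ1 in AML-193 and of H2AZ2 and H2AJ in HNT-34 and HL60 were each lost in some fits that left out 1 array of the line. H3-3A, read from its single-gene probe set, was not called in any line (-0.14 to 0.11).

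Of the 6 germline genes, H1-6, the testis linker histone, rose by 0.31 ± 0.08 in HNT-34 (adjusted p = 0.017) and by 0.25 ± 0.08 in HL60 (adjusted p = 0.0387), and H1-8, the oocyte linker histone, rose by 0.31 ± 0.11 in AML-193 (adjusted p = 0.0485). A second probe set of H1-6 was at -0.04 ± 0.14 in HNT-34, and the mean of its probe sets was 0.14 there and not called (adjusted p = 0.394). The HL60 value of H1-6 with the covariate was 0.24 and not called (adjusted p = 0.325). The H1-6 calls in HNT-34 and HL60 were each lost in some fits that left out 1 array of the line. H1-7, H2BC1, H2BW2 and H3-4, with mean signals of 4.42 to 6.55 and so below the array median, were not called in any line. Differences of all 6 lay between -0.14 and 0.31. No pseudogene was called by limma in any line (1 was lower in HL60 at an unadjusted p under 0.05), with values from -0.30 to 0.18, although a second probe set of H2BW4P was at -0.97 ± 0.12 in AML-193.

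The AZA differences of 19 members were unequal between lines by limma's F-test, 32.8% of the 58 against 40% of all genes. By gene rather than by line, H2AC6 and H2BC12 were called higher in 4 lines, H1-2 and H2BC21 in 3, another 6 members in 2 and 10 in 1, and 31 were called in no line. H1-10, H2AJ and H2AX were called in both directions. Shares of all genes called in several lines or in both directions were not computed, so these counts are not read as a histone result. The 11 H1, H2A and H2B replication-dependent genes called higher in HNT-34 had values of 0.42 to 1.83 there and -0.06 to 0.46 in KG1a, where 2 of them were called. In AML-193, 8 of the 11 were called higher (-0.13 to 1.33), and in HL60 4 were (-0.18 to 0.60). These 11 were chosen by their HNT-34 call, so their higher values in HNT-34 are partly set by that choice. Shares of all genes chosen in the same way were not computed, and several of the 11 are read from _x_at or _s_at probe sets.

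Vehicle levels were unequal between lines for 32 of the 58 members, 55.2% against 66.7% of all genes. Among these 32 the level was highest in HL60 for 13, AML-193 for 11, HNT-34 for 5 and KG1a for 3. It was lowest in KG1a for 11 and in AML-193 for 9. The AML-193 vehicle arrays had a 3′ minus 5′ signal of 1.59 and 0.939, and the other vehicle arrays lay between -0.0796 and 0.122. Line and RNA quality therefore cannot be told apart for the AML-193 vehicle levels. With each array shifted to equal housekeeping signal, 55 members were unequal. The shift moves all genes of an array alike, and the share of all genes under it was not computed, so 55 is not read as a histone result. H2AC25 had the widest range, 3.02, with vehicle arrays at 10.28 and 10.21 in HL60, 8.16 and 8.16 in KG1a, 7.41 and 7.62 in HNT-34 and 7.12 and 7.33 in AML-193. HL60 stood far above the other lines, and the gap between HNT-34 and AML-193 (means of 7.52 and 7.22) was not much wider than that between the arrays of either line.

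H1-10 ranged over 1.97 (AML-193 highest, KG1a lowest), H2BC4 over 1.90 (AML-193, HNT-34), H2AJ over 1.86 (HNT-34, HL60) and H2BC5 over 1.82 (HL60, AML-193). H3C2 ranged over 1.71 and was high in AML-193 alone, with vehicle arrays of HNT-34, KG1a and HL60 overlapping or nearly so. H1-2 ranged over 1.71 and H2BC12 over 1.47. For both, AML-193 and HL60 were high, with KG1a lowest, and for H2BC12 those 2 lines overlapped in level (12.64 and 12.61 against 12.69 and 12.60). In HNT-34, where H1-2 and H2BC12 rose most, their vehicle levels had been the second lowest of the 4 lines.

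**Figure D4:**
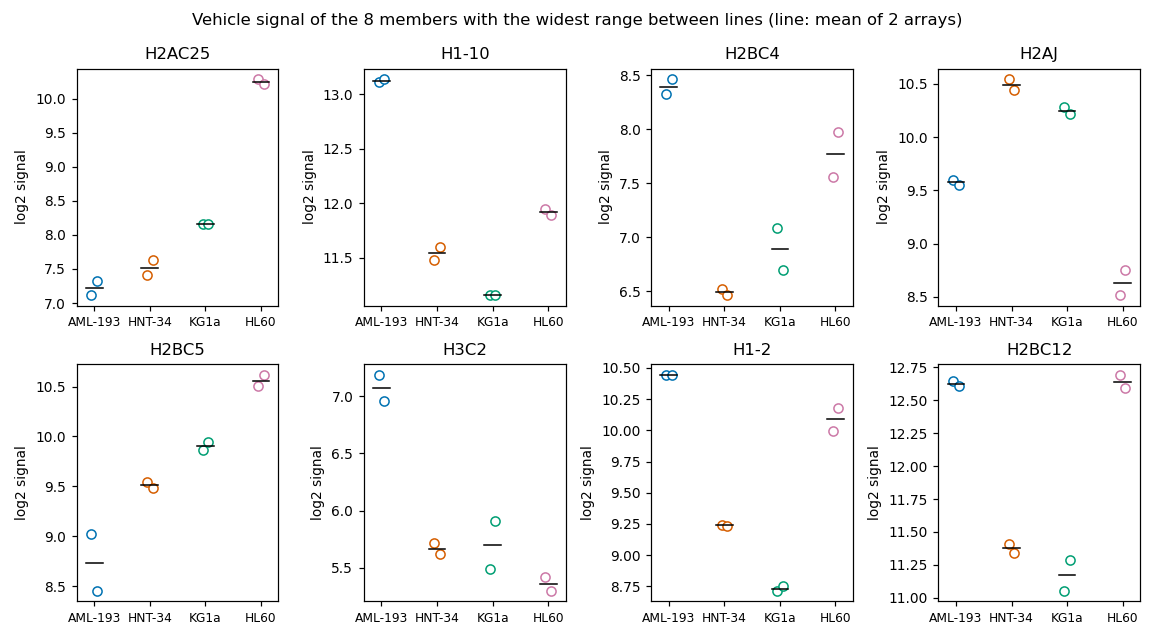
Log2 signal (vertical axis, separate scale per panel) of the 2 vehicle arrays in each cell line for the 8 members with the widest range; circles are arrays and black lines their mean. H2AC25 reaches 10.25 in HL60 against 7.22 in AML-193, and H1-10 is highest in AML-193 and lowest in KG1a. The AML-193 vehicle arrays had a higher 3′ minus 5′ signal than the other vehicle arrays.

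Genes around the histone supply were read from lists, given as higher and lower counts in AML-193, HNT-34, KG1a and HL60 in turn. Of all genes, 14.9% were higher and 14% lower in AML-193, 10.6% and 9.57% in HNT-34, 4.16% and 1.88% in KG1a, and 17.3% and 11.2% in HL60. With the covariate 0 genes of these lists were called in AML-193, where 1.01% of all genes were then higher and 0.622% lower. In the other lines 11.3% and 10.1% of all genes were then higher and lower in HNT-34, 4.72% and 2.28% in KG1a, and 5.5% and 3.28% in HL60. Of 24 genes for histone message transcription and processing, 5 and 7, 5 and 6, 0 and 1, and 9 and 5 were called, or 20.8% and 29.2% of the list in AML-193, 20.8% and 25% in HNT-34, and 37.5% and 20.8% in HL60. With the covariate 0 were called by limma in AML-193 (2 higher and 1 lower at an unadjusted p under 0.05), and 2 higher and 0 lower in HL60 (6 and 4 unadjusted). SLBP, the stem-loop binding protein, was called at 0.40 ± 0.10 in AML-193 and -0.54 ± 0.10 in HL60, and was -0.08 in HNT-34 and 0.01 in KG1a. With the covariate SLBP was 0.02 in AML-193 and -0.30 in HL60, neither of them called (adjusted p = 0.975 and 0.202). NPAT, the activator at histone clusters, was called in HL60 alone (0.31 ± 0.09, and with the covariate 0.27, adjusted p = 0.295), and LSM11, part of the U7 particle that cuts histone messages, was the gene that fell in KG1a, by 0.41 ± 0.08.

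Of 27 histone chaperones, which carry and deposit histones, 6 and 6, 0 and 6, 0 and 0, and 8 and 6 were called by limma. The 6 lower in HNT-34 are 22.2% of the list, and with the covariate 8 were lower there. In AML-193 0 were then called (1 higher and 1 lower unadjusted), and in HL60 0 were higher and 2 lower (6 and 2 unadjusted). At an unadjusted p under 0.05, 1 was higher in HNT-34, and 0 were higher and 3 lower in KG1a. The 6 that fell in HNT-34 were CHAF1A, NASP, HIRA, NAP1L1, SUPT16H and EP400, by 0.24 to 0.38. ASF1A fell by 1.06 ± 0.12 in HL60, and with the covariate by 0.75 (adjusted p = 0.0153). Of 4 other histone-fold genes, CENPA, the centromeric H3, was called at 0.49 ± 0.17 in AML-193 and -0.63 ± 0.17 in HL60, and with the covariate was 0.05 and -0.35, neither of them called (adjusted p = 0.973 and 0.493), while H2AP, MACROH2A1 and MACROH2A2 were not called.

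Of 24 genes of S phase and DNA replication, 2 and 8, 0 and 12, 0 and 0, and 4 and 7 were called, with 0 higher and 14 lower for the mean of the lines, against 16.6% and 11.3% of all genes. The 12 lower in HNT-34 are 50% of the list, and with the covariate 13 were lower there. In AML-193 0 were then called (2 lower unadjusted), and in HL60 1 was lower (2 higher and 5 lower unadjusted). At an unadjusted p under 0.05, 1 was higher and 9 lower in KG1a, and 0 were higher in HNT-34. In HNT-34 the 12 that fell included MCM5, by 0.73 ± 0.09, MCM3, by 0.69 ± 0.07, and POLA1, by 0.65 ± 0.11, and the list's median was -0.30 while all genes had 0.01. Of 9 cell cycle inhibitor genes, 2 and 2, 2 and 2, 2 and 0, and 2 and 5 were called, and with the covariate 0 and 0 (1 and 2 unadjusted), 2 and 2, 2 and 0, and 1 and 1. CDKN1A, the p21 inhibitor, rose by 1.18 ± 0.14 in AML-193, by 1.08 ± 0.14 in HNT-34 and by 0.89 ± 0.14 in KG1a, of which the AML-193 value was not called with the covariate (1.37, adjusted p = 0.0654). CDKN2A rose by 1.55 ± 0.09 in HNT-34 and by 1.61 ± 0.09 in KG1a.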

How the data were processed

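Probe-set signals were deposited on a log2 scale. The submitters' processing notes name affy and RMA without versions, and the base of the log is read from the values (3.26 to 15.3). They were used as deposited. Of 54675 probe sets, 62 are controls, 41097 name 1 gene symbol, 1801 several and 11777 none in the platform annotation, which can be old; 41043 were matched by gene identifier to a GRCh38.p14 gene table, which changed 0 symbols. limma fitted the 8 groups in 1 model (3.58.1, R 4.3.3; 8 residual and 5.68 prior degrees of freedom), with Benjamini-Hochberg adjustment. The fit was tested on simulated data. Only 2 arrays per group limit the precision.

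The members and lists were chosen with earlier results of these data known. Named genes are up to 8 largest rises and 8 largest falls per line and for the mean among called members whose arms do not overlap, the 8 widest called ranges between lines and between vehicle groups, a fixed set of variants and neighbours, and up to 4 called genes per list. H3C6 and H2BW4P second probe sets, probe sets of several genes, H2BC14 and members not called were named after their values were seen. Alternatives were another filter, probe set rule, normalization, housekeeping shift, variance trend, covariate, class boundary and leaving out each array, and the covariate values of the list genes were added after seeing the data.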

Additional observations from a re-analysis of the deposited data

Results flagged for a closer look

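The AZA minus vehicle difference of 19 members was unequal between the 4 lines by limma's moderated F-test over all genes, with Benjamini-Hochberg adjustment. The lowest and highest log2 differences among the lines are given with each. The 7 with the smallest p were H1-10 (-0.98 to 0.43, adjusted p = 1.97e-06), H2BC12L (-0.18 to 1.60, adjusted p = 8.71e-06), H2AC6 (0.38 to 1.62, adjusted p = 8.98e-06), H1-2 (0.23 to 1.39, adjusted p = 1.28e-05), H2BC12 (0.40 to 1.49, adjusted p = 2.43e-05), H2AX (-0.43 to 0.67, adjusted p = 2.54e-05) and H2BC6 (-0.02 to 1.19, adjusted p = 3.6e-05). They were followed by H2BC5 (-0.06 to 1.83, adjusted p = 4.24e-05), H2BC21 (-0.06 to 1.18, adjusted p = 0.000169), H4C8 (-0.32 to 1.19, adjusted p = 0.000201), H2BC9 (0.02 to 1.15, adjusted p = 0.000293), H3C2 (-1.33 to 0.09, adjusted p = 0.000327), H2AC17 (-0.93 to 0.26, adjusted p = 0.000486) and H4C11 (-0.28 to 0.58, adjusted p = 0.000672). The remaining 5 were H2AJ (-0.31 to 0.40, adjusted p = 0.00549), H2AC8 (-0.13 to 0.63, adjusted p = 0.0276), H2BC11 (-0.12 to 0.48, adjusted p = 0.0451), H1-4 (-0.07 to 0.45, adjusted p = 0.0489) and H2AC25 (-0.58 to 0.06, adjusted p = 0.0496). With the 3′ minus 5′ covariate 15 members were unequal, and the share of all genes was not computed for that count.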

How the results depend on the processing

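Limits first: 2 arrays per group, probe sets shared by near-identical genes, and RNA quality that moved with treatment in AML-193 and HL60 bound what can be read. No paired analysis was possible because the labels give no replicate numbers. Called members numbered 18 in AML-193, 16 in HNT-34, 3 in KG1a, 13 in HL60, 19 for the mean, 19 for unequal differences and 32 for unequal vehicle levels. Without _x_at and _s_at probe sets, which left 45 members, these were 9, 8, 1, 4, 9, 5 and 21, in that order. With the 3′ minus 5′ covariate AML-193 and HL60 had 2 each, where 1.01% and 5.5% of all genes were higher and 0.622% and 3.28% lower. With only its own arrays fitted HL60 had 8. With genes required to reach the array median on 2 arrays, 29 members were left and 21 had unequal vehicle levels, while a housekeeping shift gave 55. Of these other settings, shares of all genes were computed for the covariate alone. Leaving out 1 array gave 12 to 18 in AML-193, 12 to 17 in HNT-34, 1 to 4 in KG1a and 8 to 14 in HL60; the lowest HL60 count came without its second vehicle array. The median difference of replication-dependent genes moved with the signal filter to 0.15 in AML-193, 0.70 in HNT-34 and 0.077 in HL60, and with the covariate to 0.16 in AML-193. With the housekeeping shift it moved to 0.043 in HNT-34, where the median of all genes moved from 0.011 to -0.084. H2AJ turned to -0.072 in HNT-34 with the mean of its probe sets and to -0.28 without shared classes. Without shared classes H2AJ in HL60 was 0.11, H2AZ1 in AML-193 0.089 and H2AZ2 in HL60 -0.021. Fewer genes or samples enter under the filter and the left-out arrays, and the housekeeping shift moves all genes of an array alike. Beyond that, the cause was not tested. Of 47 called values of named members, 47 kept their call under renewed quantile normalization and 22 under the covariate. The mean over HNT-34 and KG1a alone, added after seeing the data, called 15 members.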
